A study of Homo sapiens with 4 samples.

Results

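Enzymes and transporters of glycolysis, of the fructose bisphosphate switch that steers it and of the pentose phosphate pathway were compared between SUIT2 cells exposed to fb-PMT and untreated SUIT2 cells. The genes were chosen by symbol. Of 37 genes on the list, 34 had a transcript cluster, the probe set that summarises 1 locus on the array, among 17687 genes with a symbol. PFKFB4, SLC16A1 and SLC16A3 had none under these symbols and were not analysed here. Each of the 34 had 1 transcript cluster. The treated group (n = 2 arrays) received fb-PMT at 30 µM for 24 h, and the control group (n = 2 arrays) received phosphate-buffered saline for the same time. fb-PMT is a tetraiodothyroacetic acid derivative coupled to polyethylene glycol and a fluorobenzyl group, made to occupy the thyroid hormone site on integrin αvβ3. The study asked whether the drug changes the transcripts on which mitochondria of tumour cells depend, and glycolysis delivers the pyruvate they burn. SUIT2 is in general use as a line from pancreatic ductal carcinoma, whereas the labels name it a glioblastoma line. Of 8 ductal epithelial markers, 6 lay above the array's negative controls on all 4 arrays, while CDH1 and MUC1 lay below them on all 4. All 6 glial markers measured, GFAP and OLIG2 included, also lay below them on all 4. So did the 3 leukocyte markers measured and 2 of 3 fibroblast markers, while the fibroblast marker COL1A2 lay above them on all 4. Nothing in the labels says that replicates came from separate cultures, so each p-value rests on a spread between samples that may be only technical.

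Glycolysis splits glucose into pyruvate, and its committed step is catalysed by phosphofructokinase, which turns fructose 6-phosphate into fructose 1,6-bisphosphate. That step is driven by fructose 2,6-bisphosphate, a regulator made and removed by the bifunctional PFKFB enzymes. The same regulator inhibits fructose-1,6-bisphosphatase (FBP1), which runs the step backwards in gluconeogenesis. The pentose phosphate pathway branches off at glucose 6-phosphate and yields NADPH and ribose phosphate, while pyruvate dehydrogenase kinases (PDK) keep pyruvate out of the citrate cycle.

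The largest differences among the 34 genes belonged to FBP1, whose enzyme reverses the phosphofructokinase step, and PFKFB3, whose enzyme makes the regulator of that step. FBP1 was 2.43-fold higher and PFKFB3 2.1-fold higher with fb-PMT. Neither passed limma's moderated test at an adjusted p of 0.05, and both passed when the variance was allowed to depend on intensity. The enzymes from aldolase to lactate dehydrogenase, the bulk of the pathway, differed by -0.37 to 0.39 on the log2 scale.

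PFKFB3 (transcript cluster TC1000006652.hg.1) encodes the PFKFB isoenzyme with the strongest bias towards making fructose 2,6-bisphosphate and is known as an inducible form in tumour cells. Its log2 values were 9.84 and 9.95 in the controls and 10.93 and 11.01 after fb-PMT. Both treated arrays lay above both controls, and the within-group SDs were 0.08 and 0.06. The log2 difference was 1.07 (SE 0.15, 95% interval 0.70 to 1.44, n = 2 per group), with an adjusted p = 0.115 in limma. By unadjusted p it ranked 86 of the 21448 transcript clusters tested. With an intensity trend in limma's variance prior the adjusted p was 0.00166.

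FBP1 (TC0900010866.hg.1) encodes the gluconeogenic phosphatase that opposes phosphofructokinase. It read 12.64 and 12.99 in the controls and 14.20 and 13.99 after fb-PMT, again with no overlap. The log2 difference was 1.28 (SE 0.19, 95% interval 0.81 to 1.74, n = 2 per group), with an adjusted p = 0.126 in limma and 0.000359 with the intensity trend. Its rank by unadjusted p was 102. The control arrays of FBP1 differed from each other more (SD 0.25) than those of PFKFB3.

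The remaining measured genes of this control point had smaller differences. PFKFB2, an isoenzyme known from heart, was at 5.62 and 5.65 in the controls and 5.82 and 6.13 with fb-PMT (log2 difference 0.34, SE 0.17, adjusted p = 0.529 in limma). PFKFB1, known from liver and muscle, read 3.39 and 3.72 against 3.18 and 3.32 (-0.30, SE 0.18, adjusted p = 0.584 in limma). Both lay below the negative controls on all 4 arrays, that is, under the 95th percentile of the array's negative control probe sets (7.15 to 7.38 by array), so no fold is given for either. TIGAR, a p53-induced phosphatase that degrades fructose 2,6-bisphosphate, was detected above the negative controls at 8.71 and 8.39 in the controls and 8.07 and 8.24 with fb-PMT. Both treated values of TIGAR lay under both control values, by 0.40 in the mean (log2 difference -0.40, SE 0.18, adjusted p = 0.493 in limma). The difference between PFKFB3 and its paralogs was not tested.

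**Figure D1:**
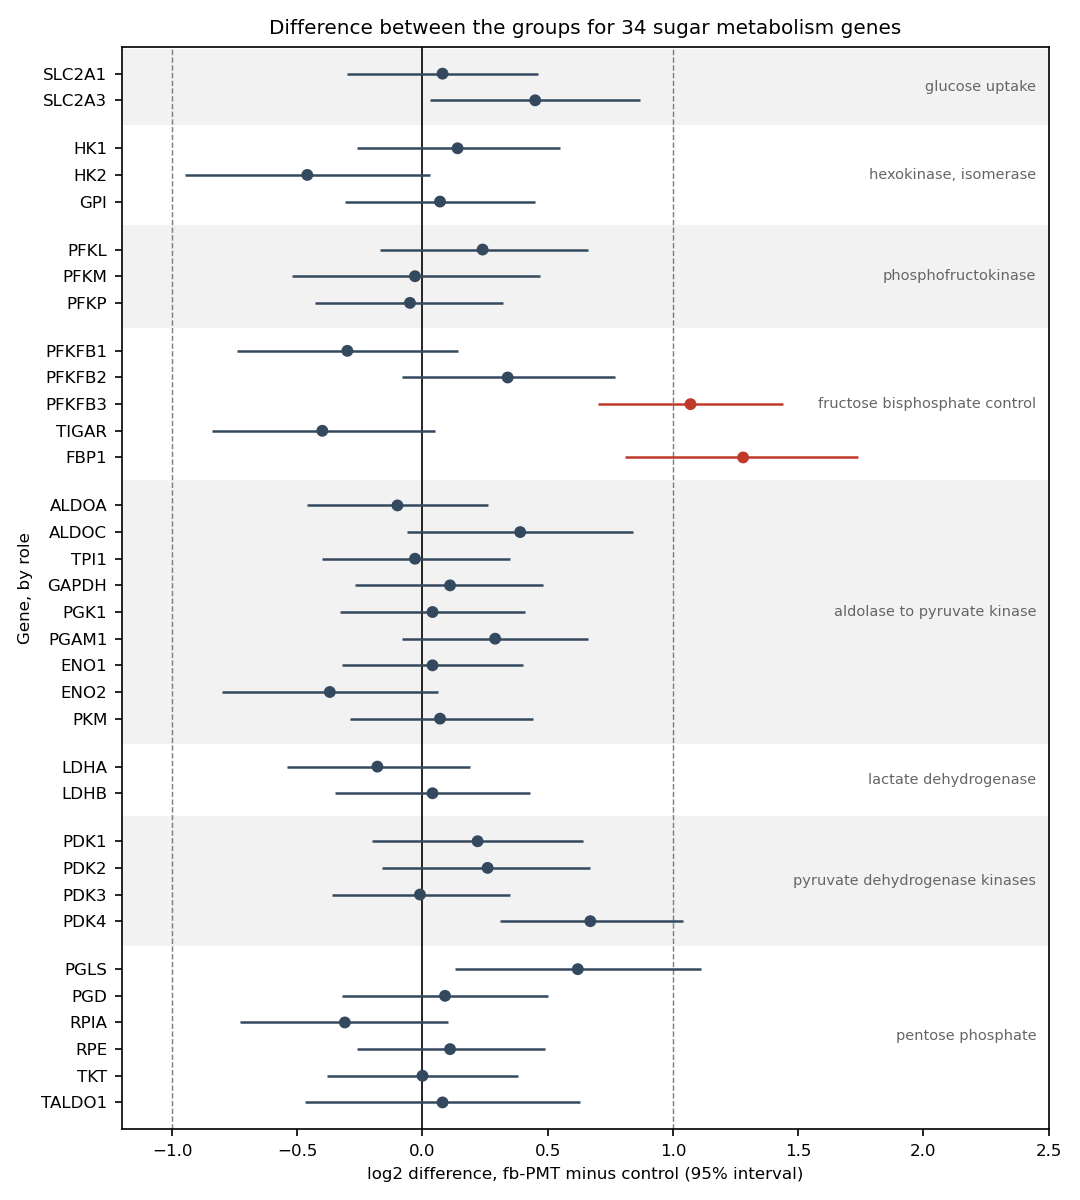
Log2 difference between fb-PMT and control arrays (x axis; points) with 95% intervals (lines, from limma's moderated variance) for the 34 genes, grouped by role (y axis; n = 2 arrays per group). Dashed lines mark a 2-fold difference either way, and red marks the genes that passed with an intensity trend, PFKFB3 (1.07) and FBP1 (1.28); the intervals of 30 genes stay between the dashed lines.

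The regions before the transcription starts of PFKFB3 and FBP1 are shown because these genes had the largest differences, and that of PGK1 because it is a textbook target of hypoxia-inducible factor (HIF) with a small difference here. Each run is the 250 bases before a RefSeq start (GRCh38.p14), 5′ to 3′ on the strand of the gene, with every match to ACGTG or GCGTG, both forms of the core of the HIF response element, in capitals (read on the other strand as CACGT or CACGC).
PFKFB3 first start, chr10:6144671-6144920, plus strand: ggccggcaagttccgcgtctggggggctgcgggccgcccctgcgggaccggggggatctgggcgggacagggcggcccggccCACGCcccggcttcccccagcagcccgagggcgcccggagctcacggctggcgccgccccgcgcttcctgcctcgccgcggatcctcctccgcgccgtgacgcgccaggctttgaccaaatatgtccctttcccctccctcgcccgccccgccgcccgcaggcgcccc
PFKFB3 second start, chr10:6202682-6202931, plus strand: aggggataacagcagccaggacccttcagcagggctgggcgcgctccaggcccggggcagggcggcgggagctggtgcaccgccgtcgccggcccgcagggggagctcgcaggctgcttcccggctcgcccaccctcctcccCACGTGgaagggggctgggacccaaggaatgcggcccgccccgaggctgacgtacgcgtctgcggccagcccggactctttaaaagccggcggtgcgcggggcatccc
FBP1, chr9:94639519-94639768, minus strand: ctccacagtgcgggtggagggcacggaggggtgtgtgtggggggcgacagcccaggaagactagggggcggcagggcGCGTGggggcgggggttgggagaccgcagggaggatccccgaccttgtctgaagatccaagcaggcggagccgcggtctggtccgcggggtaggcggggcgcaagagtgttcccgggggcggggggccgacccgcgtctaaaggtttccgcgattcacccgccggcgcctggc
PGK1, chrX:78103998-78104247, plus strand: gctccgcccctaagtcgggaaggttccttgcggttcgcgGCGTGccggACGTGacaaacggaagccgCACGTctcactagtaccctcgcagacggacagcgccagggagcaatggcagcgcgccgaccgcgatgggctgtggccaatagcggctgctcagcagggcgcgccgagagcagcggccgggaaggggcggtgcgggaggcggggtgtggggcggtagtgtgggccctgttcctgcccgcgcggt

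The second start of PFKFB3 held CACGTG, the palindrome known as the E-box of MYC and its relatives, which contains ACGTG on both strands. The first start of PFKFB3 and the start of FBP1 each held 1 GCGTG and no ACGTG, and PGK1 had ACGTG on both strands and 1 GCGTG. PDK4, which had the third smallest p of the 34 genes, held neither form in its only window, which is not shown. Promoter windows were listed for 32 of the 34 genes. ACGTG on either strand was in 20 of their 57 windows (35.1%), against 18.5% of all 35116 windows of the same length. Some genes had several overlapping windows, and windows were not matched for base composition, so these shares carry no test. GCGTG was in 16 of the 57 (28.1%), against 32.2%, and either form in 28 (49.1%), against 43.2%. CACGTG was in 7 (12.3%), against 6.34%. The 22 genes with either form in at least 1 window had log2 differences of -0.46 to 1.28 with a median of 0.04, and 12 of them were higher. The 10 genes with neither ranged from -0.30 to 0.67 with a median of 0.08. For ACGTG alone, the 17 genes with it had a median of -0.01, and 8 of them were higher. The 15 genes without ACGTG had a median of 0.08. PGK1 was picked with its difference known, and the split of the genes by motif carries no test either. A match to these letters does not show that a factor binds there.

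Glucose enters tumour cells mainly through GLUT1, the product of SLC2A1, which was at 12.10 and 12.12 in the controls and 12.28 and 12.10 with fb-PMT. The groups overlapped, and the 95% interval of the log2 difference ran from -0.30 to 0.46. SLC2A3, which encodes the high-affinity transporter GLUT3, was at 7.15 and 7.05 in the controls, below the negative controls, and at 7.41 and 7.70 with fb-PMT, above them. Computed from the negative control percentile of the control arrays, its fold had a lower bound of 1.19. That bound covers background only and not the spread between arrays. The log2 difference as measured was 0.45 (SE 0.17, 95% interval 0.03 to 0.87, adjusted p = 0.426 in limma).

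Hexokinase traps glucose in the cell as glucose 6-phosphate. HK1, the housekeeping form, was 1.1-fold higher with fb-PMT (log2 difference 0.14, 95% interval -0.26 to 0.55). HK2, the form often induced in tumours, lay below the negative controls in both groups, at 7.10 and 7.09 against 6.41 and 6.87 (-0.46, SE 0.20, adjusted p = 0.475 in limma), so no fold is given. GPI, which isomerises the product to fructose 6-phosphate, was at 0.07 with overlapping groups.

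Of the phosphofructokinase subunits, PFKL, the liver type, read 10.69 and 10.97 in the controls and 11.03 and 11.10 with fb-PMT (log2 difference 0.24, 95% interval -0.17 to 0.66). PFKM, the muscle type, and PFKP, the platelet type, had overlapping groups at -0.03 and -0.05. The enzyme that fructose 2,6-bisphosphate activates showed no subunit difference past the test, and the 95% intervals of all 3 subunits lay between -0.52 and 0.66.

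From aldolase to pyruvate kinase, 6 of 9 genes were higher and 3 lower, with a median log2 difference of 0.0406, and 0 passed. Of all 21448 transcript clusters, 10150 were higher and 11298 lower, and 0.0979% were called higher and 0% lower. PGAM1, the phosphoglycerate mutase of most tissues, was at 14.07 and 14.19 in the controls and 14.41 and 14.43 with fb-PMT (0.29, SE 0.15, adjusted p = 0.538 in limma). ALDOC, the brain type of aldolase, was at 8.16 and 7.79 against 8.41 and 8.31 (0.39, SE 0.18, adjusted p = 0.508 in limma). In both genes the treated arrays lay above the controls without overlap. ENO2, the neuronal enolase, was lower on both treated arrays, at 4.60 and 4.53 against 4.04 and 4.36 (-0.37, SE 0.17, adjusted p = 0.503 in limma), but below the negative controls on all 4 arrays.

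The other 6 genes of this stretch had differences of -0.10 to 0.11. GAPDH, the dehydrogenase used as a reference gene in many assays, was at 17.35 and 17.51 in the controls and 17.53 and 17.54 with fb-PMT (log2 difference 0.11, 95% interval -0.27 to 0.48). ALDOA, the main aldolase, was at -0.10 (-0.46 to 0.26) and ENO1, the main enolase, at 0.04 (-0.32 to 0.40). PKM, the pyruvate kinase of tumour cells, was at 0.07 (-0.29 to 0.44), PGK1 at 0.04 (-0.33 to 0.41) and TPI1, triosephosphate isomerase, at -0.03 (-0.40 to 0.35). Several of these genes have processed pseudogenes of near-identical sequence. Whether their probes read such copies was not tested. The interval of each of these 6 genes lay inside a 2-fold difference in either direction. Like the p-values, the intervals rest on a spread between 2 arrays per group that may be only technical. A p that misses the threshold does not show equal levels.

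**Figure D2:**
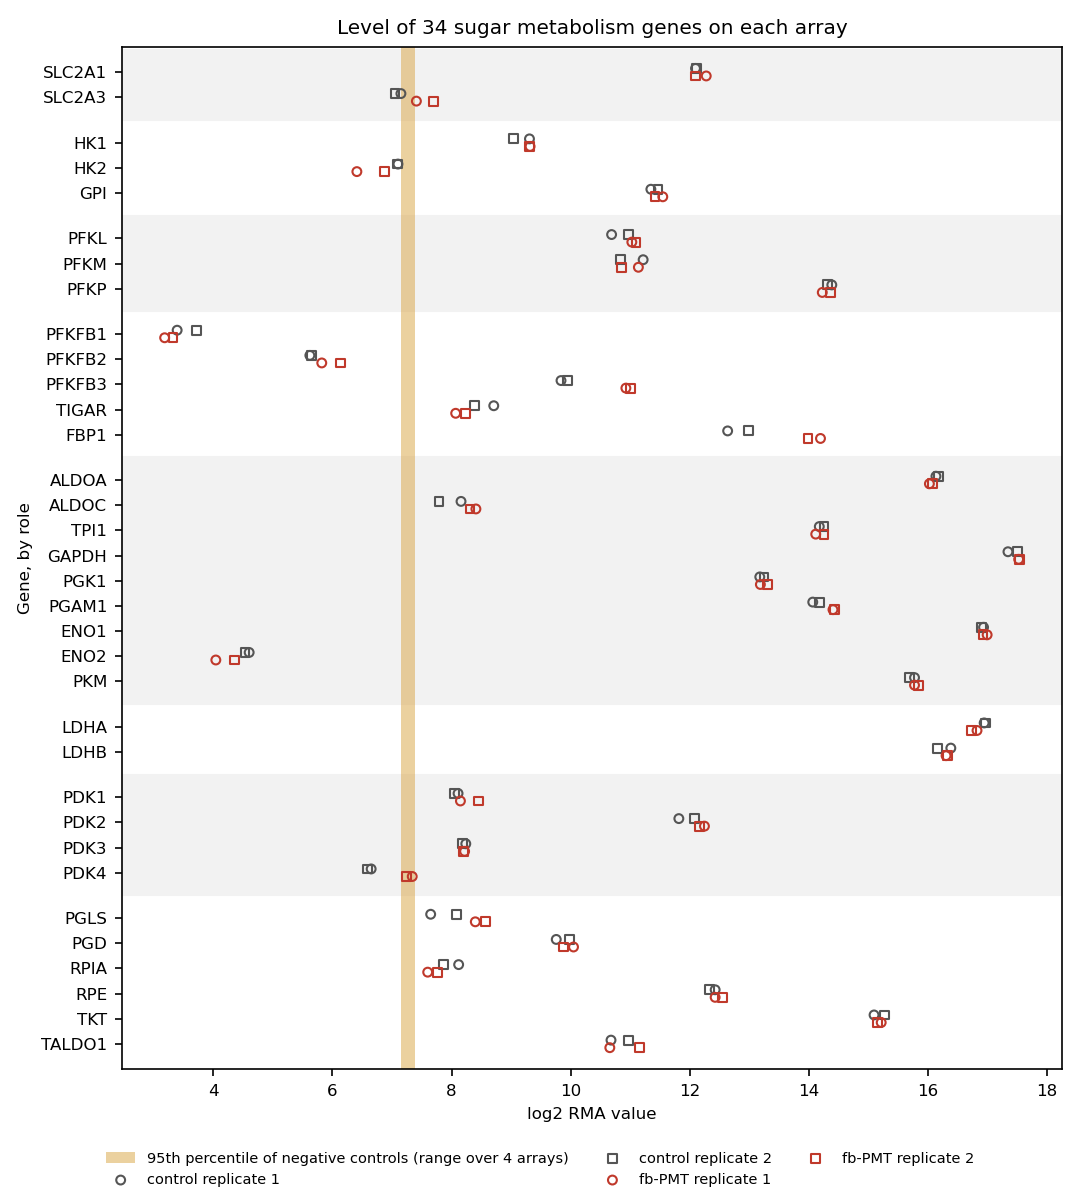
Log2 RMA value (x axis) of the 34 genes, grouped by role (y axis), on the 2 control arrays (grey) and the 2 fb-PMT arrays (red), with circles for replicate 1 and squares for replicate 2. The band is the range over arrays of the 95th percentile of the negative controls (7.15 to 7.38); PFKFB3 and FBP1 show the widest gaps between grey and red, while HK2, PFKFB1, PFKFB2 and ENO2 lie left of the band on every array.

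Lactate dehydrogenase converts pyruvate to lactate and regenerates NAD+ for glycolysis. LDHA, which favours lactate production, was at 16.95 and 16.97 in the controls and 16.83 and 16.74 with fb-PMT, so both treated arrays were lower (log2 difference -0.18, 95% interval -0.54 to 0.19). LDHB, the subunit known for the reverse direction, had overlapping groups at 0.04 (-0.35 to 0.43).

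Of the pyruvate dehydrogenase kinases, 0 passed, where 0.0979% of all transcript clusters were called higher and 0% lower. In 3 of 4 both treated arrays lay above both controls, as in 20.2% of all transcript clusters. PDK4, the isoenzyme known to be induced by fasting and fatty acids, had the third smallest p of the 34 genes. It was at 6.65 and 6.59 in the controls, below the negative controls, and at 7.34 and 7.25 with fb-PMT, where 1 of 2 arrays was above them. Its log2 difference as measured was 0.67 (SE 0.15, 95% interval 0.31 to 1.04, adjusted p = 0.255 in limma and 0.171 with the intensity trend). No fold bound is given for PDK4, because the treated mean did not exceed the background of the control arrays. PDK2 was at 11.82 and 12.09 against 12.25 and 12.17 (0.26, -0.16 to 0.67), and PDK1, a HIF target, at 8.11 and 8.05 against 8.15 and 8.45 (0.22, -0.20 to 0.64). PDK3 read 8.24 and 8.19 against 8.22 and 8.20, a log2 difference of -0.01 (-0.36 to 0.35).

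In the pentose phosphate pathway, 5 of 6 genes were higher and 1 lower with a median log2 difference of 0.0854, and 0 passed. Of all 21448 transcript clusters, 10150 were higher and 11298 lower, and 0.0979% were called higher and 0% lower. At such shares, 0 of 6 says little about these genes. PGLS, the lactonase of the oxidative branch, read 7.65 and 8.08 in the controls and 8.40 and 8.57 with fb-PMT. Both treated arrays were higher, by 1.54-fold (log2 difference 0.62, SE 0.20, 95% interval 0.13 to 1.11, adjusted p = 0.378 in limma), with a within-group SD of 0.30 in the controls. PGD, the next enzyme of that branch, which makes NADPH, had overlapping groups at 0.09 (-0.32 to 0.50).

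RPIA, the isomerase that makes ribose 5-phosphate, was at 8.12 and 7.87 in the controls and 7.60 and 7.76 with fb-PMT. Both treated arrays were lower (log2 difference -0.31, SE 0.17, adjusted p = 0.549 in limma). RPE, the epimerase beside it, was at 0.11 (95% interval -0.26 to 0.49). The non-oxidative enzymes TKT, transketolase, and TALDO1, transaldolase, had overlapping groups, with intervals of -0.38 to 0.38 and -0.47 to 0.63.

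Over the 34 genes, 4 lay below the negative controls on every array (HK2, PFKFB1, PFKFB2 and ENO2), against 55.1% of all transcript clusters. Of the 34, 0 were called higher or lower in limma at an adjusted p under 0.05, where 0.0979% of all transcript clusters were called higher and 0% lower. The calls over all transcript clusters were 21 higher and 0 lower. Leaving out 1 array changed the 21 to 9 without control replicate 1, to 5 without control replicate 2 and to 1 without either fb-PMT array. With an intensity trend, 2 of the 34 were called higher and 0 lower, against 1.37% and 0.513% of all transcript clusters. Before adjustment, 5 genes had a p under 0.05 with a higher level (PFKFB3, FBP1, PDK4, PGLS and SLC2A3) and 0 with a lower one, against 5.7% and 5.49% of all transcript clusters.

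In 14 of the 34 genes (41.2%) both treated arrays lay above both controls, against 20.2% of all transcript clusters. In 7 (20.6%) both lay below, against 22.3%. Of the 34, 29 lay above the negative controls on both arrays of at least 1 group. Among these, 12 (41.4%) were higher in this way and 4 (13.8%) were lower. The shares among the 9199 transcript clusters that met the same condition were 27.3% and 22.8%. That condition uses the groups, and SLC2A3, counted among the 12, met it only through the fb-PMT arrays, where it was higher. The 41.4% therefore cannot be read as a result about the treatment. The median log2 difference of the 34 genes was 0.0769, with 23 higher and 11 lower. Over all 21448 transcript clusters it was -0.0173, with 10150 higher and 11298 lower. Among the 9199 transcript clusters above the negative controls on both arrays of at least 1 group it was 0.011. By pair of a treated and a control array, the median of the 34 genes ran from 0.024 to 0.0764. The median absolute difference was 0.158, against 0.175 over all transcript clusters. The genes share the same 4 arrays and were chosen with earlier results known, so these shares carry no test. In 30 of the 34 genes (88.2%) the 95% interval lay inside a 2-fold difference either way, which was also true of 87.2% of all transcript clusters. The exceptions were PFKFB3, FBP1, PDK4 and PGLS. The arrays read RNA pooled from all cells of a sample, so a change in some cells and a change in every cell cannot be told apart.

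**Figure D3:**
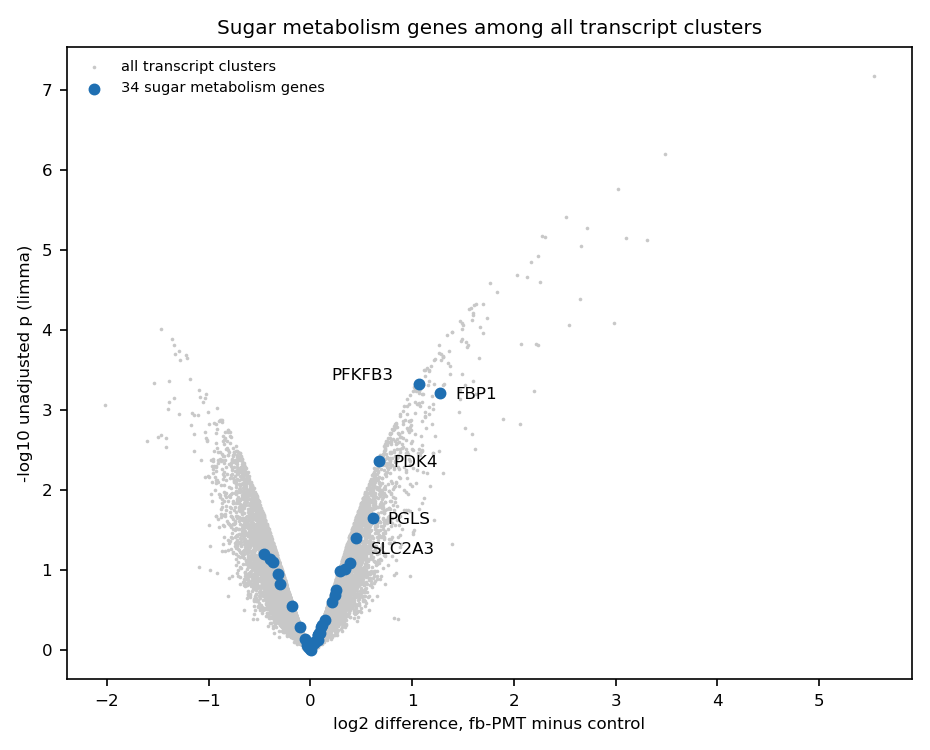
Log2 difference between fb-PMT and control arrays (x axis) against -log10 of the unadjusted limma p (y axis) for all 21448 transcript clusters (grey) and the 34 genes (blue). PFKFB3 and FBP1 sit apart from the other 32 genes on the right arm, below the 21 transcript clusters that passed.

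Genes that neighbour these pathways were taken from 6 further lists with 94 genes, of which 86 were measured. None passed in limma at an adjusted p under 0.05, where 0.0979% of all transcript clusters were called higher. Before adjustment 5 of the higher and 8 of the lower ones had a p under 0.05, against 5.7% and 5.49% of all transcript clusters. A positive log2 difference was found in 43 of the 86, against 10150 of all 21448 transcript clusters. With an intensity trend 1 was called higher (GBE1) and 1 lower (PYGL), against 1.37% and 0.513% of all transcript clusters.

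GBE1, the branching enzyme of glycogen, the storage polymer of glucose, was at 7.02 and 7.33 in the controls and 8.20 and 8.07 with fb-PMT. It was 1.95-fold higher (log2 difference 0.96, SE 0.17, adjusted p = 0.203 in limma and 0.0385 with the intensity trend), with 1 of 2 control arrays above the negative controls. PYGL, the liver type of glycogen phosphorylase, which releases glucose 1-phosphate, read 11.57 and 11.58 against 11.03 and 11.01. It was 1.47-fold lower (-0.55, SE 0.14, adjusted p = 0.32 in limma and 0.0348 with the intensity trend), and replicates differed by far less than the groups did. PCK2, the mitochondrial enzyme that makes phosphoenolpyruvate, was the third gene named from the 17 measured genes of these side branches, at 1.11 but below the negative controls on all 4 arrays. Other genes of glycogen turnover in that list, named after their values were seen, were GYS1 (0.06), UGP2 (-0.05), PGM1 (0.11), PGM2 (-0.05), PYGB (-0.25) and PYGM (-0.18). None of them was called, and PYGM lay below the negative controls on all 4 arrays. That list's median was -0.0485.

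Of 10 measured genes of the pyruvate dehydrogenase complex, its phosphatases and the pyruvate carrier, 4 were higher and 6 lower, and the median was -0.0167. PDP1, the phosphatase that reverses the action of the PDK enzymes, was at 11.78 and 12.07 in the controls and 11.46 and 11.54 with fb-PMT (log2 difference -0.42, SE 0.17, adjusted p = 0.446 in limma). MPC1, a subunit of the carrier that takes pyruvate into mitochondria, was at -0.21 without overlap, and PDPR, a regulatory subunit of the phosphatase, at 0.28 with overlapping groups. The 95% intervals of all 10 genes lay inside a 2-fold difference.

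A further list held mainly isoenzymes known from particular tissues, beside ADPGK, BPGM and GCKR, which are not such isoenzymes. Of its 15 measured genes, 11 lay under the negative controls throughout, and the median was 0.0107. HKDC1, a hexokinase-related protein, was well measured at 9.59 and 9.69 in the controls and 8.95 and 9.19 with fb-PMT, which made it 1.49-fold lower (log2 difference -0.57, SE 0.16, adjusted p = 0.352 in limma). LDHC (-0.51), the testis form of lactate dehydrogenase, and HK3 (-0.49) lay below the negative controls. Of 17 further transporter genes, 11 also lay below them on all 4 arrays. The sugar transporter genes SLC2A8 (0.75), SLC2A10 (0.78) and SLC2A2 (-0.47), those with the smallest p in that list, were all among the 11.

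Of 8 further genes of pentose and ribose phosphate metabolism, 5 were higher and 3 lower. TKTL2 (-0.55) and SHPK (0.19) were below the negative controls, and PRPS1, which makes phosphoribosyl pyrophosphate from ribose 5-phosphate, was at -0.15. Of 19 regulators, 9 were higher and 10 lower, with a median of -0.0422. None of the 19 passed, where 0.0979% of all transcript clusters were called higher and 0% lower. Both treated arrays lay below both controls in 6 of the 19 regulators and above in 2, against 22.3% and 20.2% of all transcript clusters. ARRDC4, an arrestin-related protein known to restrain glucose uptake, was at -0.86 but below the negative controls. PRKAA2, a catalytic subunit of the energy sensor AMPK, was at 9.10 and 9.17 against 8.75 and 8.75 (log2 difference -0.38, SE 0.15, adjusted p = 0.431 in limma). ESRRA, a nuclear receptor known to drive genes of energy metabolism, was at -0.37, with 1 of its 4 arrays above the negative controls. HIF1A, the oxygen-regulated subunit of HIF, and MYC, named after their values were seen, were at -0.04 and -0.33. The groups overlapped for HIF1A. MYC read 12.45 and 12.44 in the controls and 12.10 and 12.13 with fb-PMT (SE 0.14, 95% interval -0.68 to 0.03, adjusted p = 0.48 in limma).

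**Figure D4:**
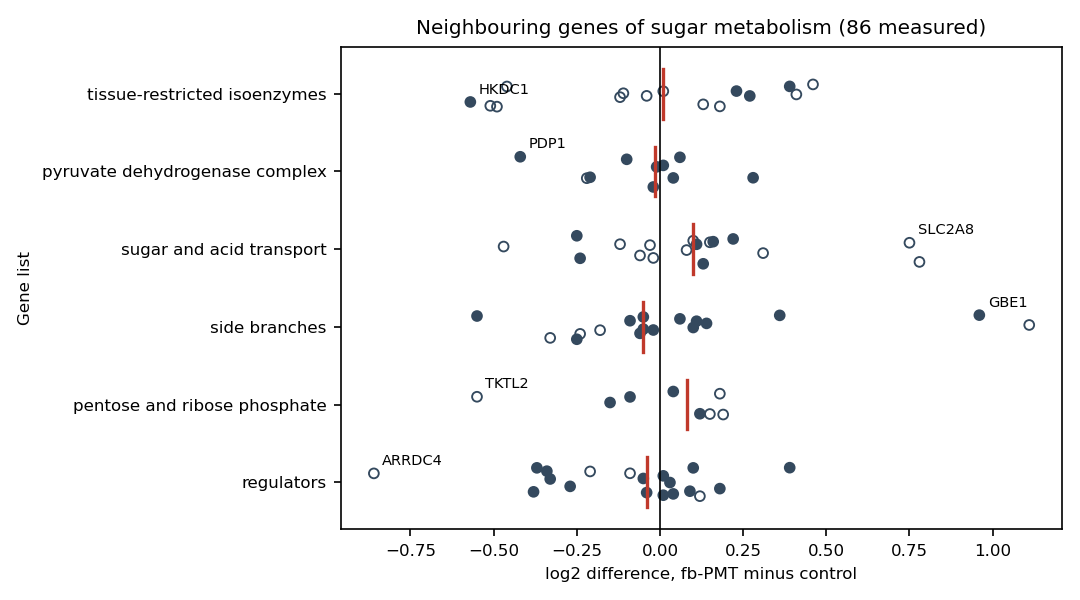
Log2 difference between fb-PMT and control arrays (x axis) for the 86 measured genes of the 6 neighbouring lists (y axis). Open points are genes below the negative controls on all 4 arrays, red bars are list medians, and the labels name the gene with the smallest p in each list; GBE1 (0.96) is the filled point farthest to the right.

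The adjusted p-values of PFKFB3 and FBP1 depended on how the variance was modelled and on which transcript clusters were tested. Among the transcript clusters above the negative controls on both arrays of at least 1 group, they were 0.00619 and 0.00895. That filter uses the groups, so it can admit transcript clusters through the group where they are higher. Without the lowest 30% of transcript clusters, a filter that does not use the groups, the adjusted p-values were 0.063 and 0.077 in limma. Leaving out 1 array kept the log2 difference of PFKFB3 between 1.01 and 1.12 (adjusted p = 0.185 to 0.642 in limma) and that of FBP1 between 1.10 and 1.45 (0.149 to 0.642). In the same 4 settings PDK4 ran from 0.63 to 0.72 and PGLS from 0.40 to 0.84.

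**Figure D5:**
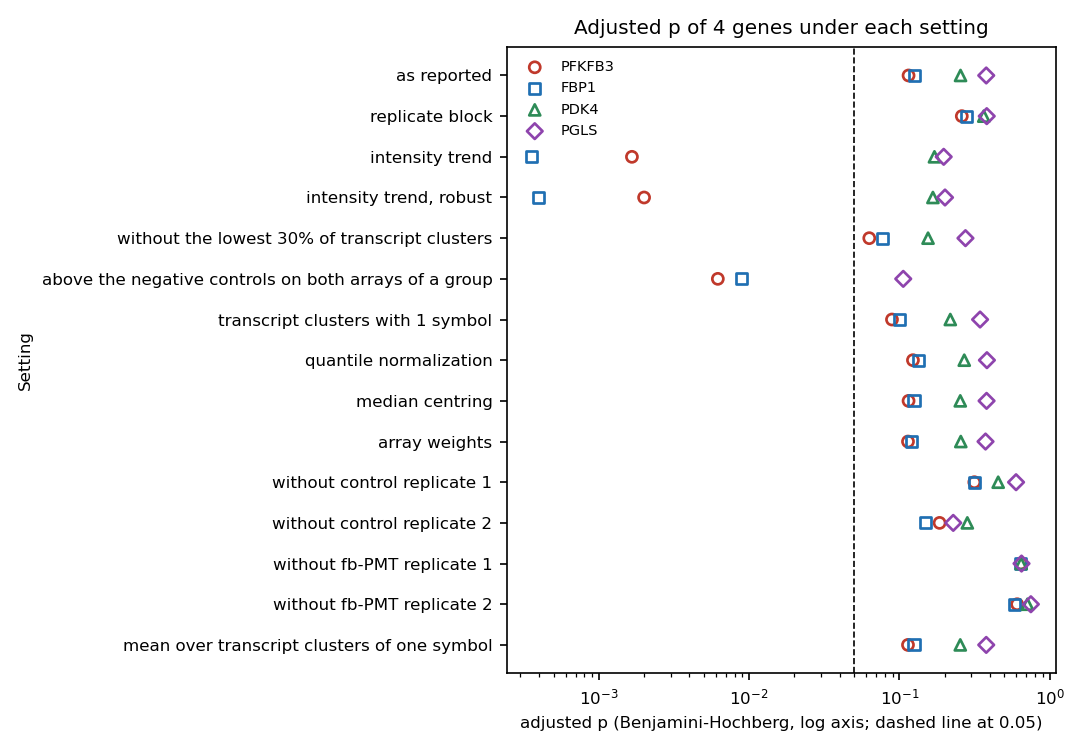
Adjusted p (x axis, log scale) of PFKFB3, FBP1, PDK4 and PGLS under each setting (y axis), with a dashed line at 0.05. PFKFB3 and FBP1 fall left of the line in 3 settings, both intensity trends and the filter on negative controls, which uses the groups. PDK4 did not pass that filter and has no point there.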

How the data were processed

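Total RNA from 2 control and 2 fb-PMT samples was read on single-colour whole-transcript arrays. Per the submitters' processing notes, the authors ran RMA in Transcriptome Analysis Console 4.0.1.36, and the deposited table holds the resulting log2 values. RMA corrects background, normalizes between arrays and summarises each probe set, so differences of dim probe sets shrink and a shift common to most genes is lost. Which RMA variant and genome build were used is not given in the sources used here. The table had 24351 probe sets, 2903 of them controls, and the other 21448 transcript clusters were tested. The platform annotation gave 17709 of them 1 symbol and 3739 none. Levels of different genes are not compared, since probe sets differ in brightness.

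Groups were compared in R 4.3.3 with limma 3.58.1 (lmFit, eBayes without a trend, 2 residual and 3.72 prior degrees of freedom), two-sided, with Benjamini-Hochberg adjustment over all 21448 and a threshold of 0.05. The fit was tested on simulated data. Permuting 4 arrays cannot reach that threshold. The number of arrays limits the precision: the median SE of a log2 difference was 0.175. Array medians were 6.27 to 6.28. A gene under the 95th percentile of 612 negative control probe sets on both arrays of a group counts there as below the negative controls, and against such a group a fold is a lower bound. The genes and lists were chosen with earlier results of these data known. All measured genes are named, the 12 with the smallest p with every array's value, and up to 3 of each neighbouring list by smallest p. Same-numbered replicates share only a number.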

Additional observations from a re-analysis of the deposited data

How the results depend on the processing

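Of the 34 genes, 24 kept the sign of their difference in every alternative. The other 10 lay near 0 and turned when 1 array was left out, with ranges of -0.00505 to 0.17 for SLC2A1, -0.21 to 0.16 for PFKM, -0.13 to 0.018 for PFKP, -0.096 to 0.039 for TPI1, -0.026 to 0.099 for PGK1, -0.068 to 0.15 for LDHB, -0.031 to 0.019 for PDK3, -0.018 to 0.2 for PGD, -0.081 to 0.086 for TKT and -0.17 to 0.33 for TALDO1. TKT was also at -0.00826 after quantile normalization. The count of the 34 called higher was 2 with an intensity trend, 2 with a robust trend, 2 with the filter on negative controls and 5 at an unadjusted p under 0.05, and 0 in the other alternatives run, while 0 were called lower in each. Their median difference was 0.0538 to 0.0798 over the alternatives. Over all transcript clusters, the 21 called higher became 293 and 286 with the 2 trends, 61 without the lowest 30%, 235 with the filter on negative controls, 42 among those with 1 symbol, 65 at an adjusted p under 0.1, 1222 at an unadjusted p under 0.05, and 1 to 9 with 1 array left out. The count called lower, 0, became 110, 108, 6, 83, 2, 8 and 1177 in the same order, and was 0 with any array left out. With the replicate number as a block, 1 transcript cluster was called higher and 0 of the 34 genes. Same-numbered arrays' deviations correlated at 0.042. The cause of these shifts was not tested. Dim genes near the negative controls are limited by signal over background.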
